A study of Mus musculus with 8 samples.

Results

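The 10 genes described here encode the signaling chains of the T cell receptor complex (Cd3d, Cd3e, Cd3g and Cd247), its coreceptors (Cd8a, Cd8b1 and Cd4) and the proteins that act first when the receptor is engaged (Lck, Zap70 and Lat). They were chosen by name and matched to the probe sets annotated to them. Of the 10, 9 had 1 probe set each, among 19938 genes with a probe set of their own, and Lck, the kinase bound to the coreceptors, is not analysed here because no probe set carried its symbol.

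TAX-LUC mice develop tail tumors driven by the Tax oncogene of HTLV-1, which is placed under the granzyme B promoter, and they carry luciferase under the viral LTR. The study asked what the loss of IL-15, a cytokine on which NK cells and memory CD8 T cells depend, does to gene expression in these tumors. Tumor cells of 2 IL-15-/- and 2 IL-15+/+ mice were each sorted into a CD16/32LO and a CD16/32HI fraction, and the RNA of each fraction was hybridized to 1 whole-transcript Affymetrix array, which gave 8 arrays, 2 in each of the 4 groups. Replicate 1 mice were aged 14 months and replicate 2 mice 12 months.

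The 4 groups were CD16/32LO cells of IL-15-/- TAX+ LUC+ mice, CD16/32LO cells of IL-15+/+ TAX+ LUC+ mice, CD16/32HI cells of IL-15-/- TAX+ LUC+ mice and CD16/32HI cells of IL-15+/+ TAX+ LUC+ mice. No mouse without the transgenes was among them. The CD16/32LO cells are labelled as tumor infiltrating cells, and the CD16/32HI cells as malignant large granular lymphocytes. The transgene promoter is one that cytotoxic lymphocytes use, and the sort used only an antibody to the Fc gamma receptors CD16 and CD32, so that T cells were not selected in either population. The IL-15-/- allele replaces part of Il15 with a resistance cassette and leaves the other exons in place. The Il15 probe set covers both, and its values lay between 5.22 and 6.54 in the IL-15-/- arrays and between 5.18 and 6.88 in the IL-15+/+ arrays, which therefore does not check the genotype labels.

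The T cell receptor itself has no signaling tail. It reaches the cell surface only together with the CD3 delta, epsilon and gamma chains and the CD3 zeta homodimer encoded by Cd247, whose phosphorylated tyrosine motifs recruit the kinase ZAP-70, which in turn phosphorylates the membrane adaptor LAT. CD8 and CD4 bind MHC class I and class II and bring the kinase Lck to the complex. Conventional CD8 T cells carry CD8 alpha and CD8 beta, whereas CD8 alpha is also found without CD8 beta on other lymphocytes and on a dendritic cell subset, CD3 zeta is shared with NK cells and CD4 is the mark of helper and regulatory T cells.

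The genes of the CD3 chains lie side by side on mouse chromosome 9 (RefSeq, GRCm38.p6), with Cd3g at chr9:44969572-44980431, Cd3d at chr9:44981769-44987052 and Cd3e at chr9:44998735-45009663. Cd3g and Cd3d are read outward from the 1337 bases between them. Both CD8 chains are encoded on chromosome 6, with Cd8b1 at chr6:71322788-71337492 and Cd8a at chr6:71373427-71379171, and Cd4 lies apart on the same chromosome at chr6:124864693-124888247. The 150 bases before the start of Cd3g, Cd3d and Cd8a are shown because these 3 genes carried some of the widest ranges of signal over the arrays and include the head-to-head CD3 pair. Each is read 5′ to 3′ on the strand of its gene, from RefSeq GRCm38.p6, and the capitals mark each match to the E-box letters CANNTG, the core that basic helix-loop-helix factors of the E protein family can bind and that reads alike on both strands:
Cd3g, chr9:44980432-44980581, minus strand: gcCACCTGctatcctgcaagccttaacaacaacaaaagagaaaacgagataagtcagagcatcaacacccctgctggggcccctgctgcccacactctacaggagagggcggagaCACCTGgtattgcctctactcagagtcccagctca
Cd3d, chr9:44981619-44981768, plus strand: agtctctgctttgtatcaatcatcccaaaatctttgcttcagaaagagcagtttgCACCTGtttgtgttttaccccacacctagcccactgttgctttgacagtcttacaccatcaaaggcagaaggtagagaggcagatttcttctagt
Cd8a, chr6:71373277-71373426, plus strand: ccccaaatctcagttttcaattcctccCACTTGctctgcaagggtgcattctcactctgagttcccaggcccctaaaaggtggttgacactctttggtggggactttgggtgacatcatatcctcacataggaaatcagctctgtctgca
The Cd3g stretch held 2 matches and the Cd3d and Cd8a stretches 1 each. A match was present in 47.7% of the 32851 RefSeq promoters in windows of this length, so it is a description and not a site. The letters TGTGGT of RUNX factors (8.4% of promoters) and CAGGAA of ETS factors (16.6%), searched on both strands, were in none of the 3 stretches.

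The values are log2 RMA signals as the authors deposited them, in which 1 unit is a 2-fold difference. Each array's level is compared across arrays for the same gene only, since probe sets differ in how strongly they hybridize. Within each population, IL-15-/- and IL-15+/+ arrays were set against each other in 1 limma fit of all 8 arrays, run over the 21789 probe sets with a single gene symbol. A gene was called when its p-value, adjusted by Benjamini-Hochberg over all of them, was under 0.05. Array medians lay between 5.62 and 5.93. The median log2 difference of all tested probe sets, IL-15-/- minus IL-15+/+, amounted to 0.13 for CD16/32LO cells and 0.09 for CD16/32HI cells, and the members' differences are to be read against it. Exactly equal values, which arrays normalized together can share, split the arrays into 3 sets. Pairs within a set had 11 to 106 equal values and pairs between sets 0. That these are sets normalized together is inferred from the values and not stated in the sample labels. For replicate 2 the genotypes lie in different sets, so that by this inference only the replicate 1 mice were normalized together across genotypes. Xist was at 10.08 to 10.75 in IL-15-/- arrays and at 3.92 to 4.64 in IL-15+/+ arrays, and sex and genotype cannot be told apart.

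The arrays of 1 mouse ran against the others between the populations. In the IL-15-/- mouse of replicate 1, the macrophage complement gene C1qa was lower by 3.05 on the log2 scale in the array labelled CD16/32HI than in that labelled CD16/32LO, where the other mice had it higher by 2.17 to 3.26, and the neutrophil receptor Csf3r was higher by 3.42, where the others had it lower (differences of -3.26 to -2.91). Fcgr2b, a receptor that the sorting antibody binds, was lower by 1.84 in the CD16/32HI array of this mouse and higher by 1.20 to 1.95 in those of the others. Fcgr3, another receptor that this antibody binds, differed by -0.21 in this mouse and by 0.23, 0.33 and -0.34 in the others. The C1qa, Csf3r and Fcgr2b signals of this mouse thus ran against its population labels, whereas Fcgr3 had no shared direction in the other mice. Whether the labels are exchanged was not tested. The labels were kept as deposited. Results that rest on this mouse are given with and without it. The mouse was singled out by its reversal between the populations, so calls between the populations without it cannot test that contrast.

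**Figure D1:**
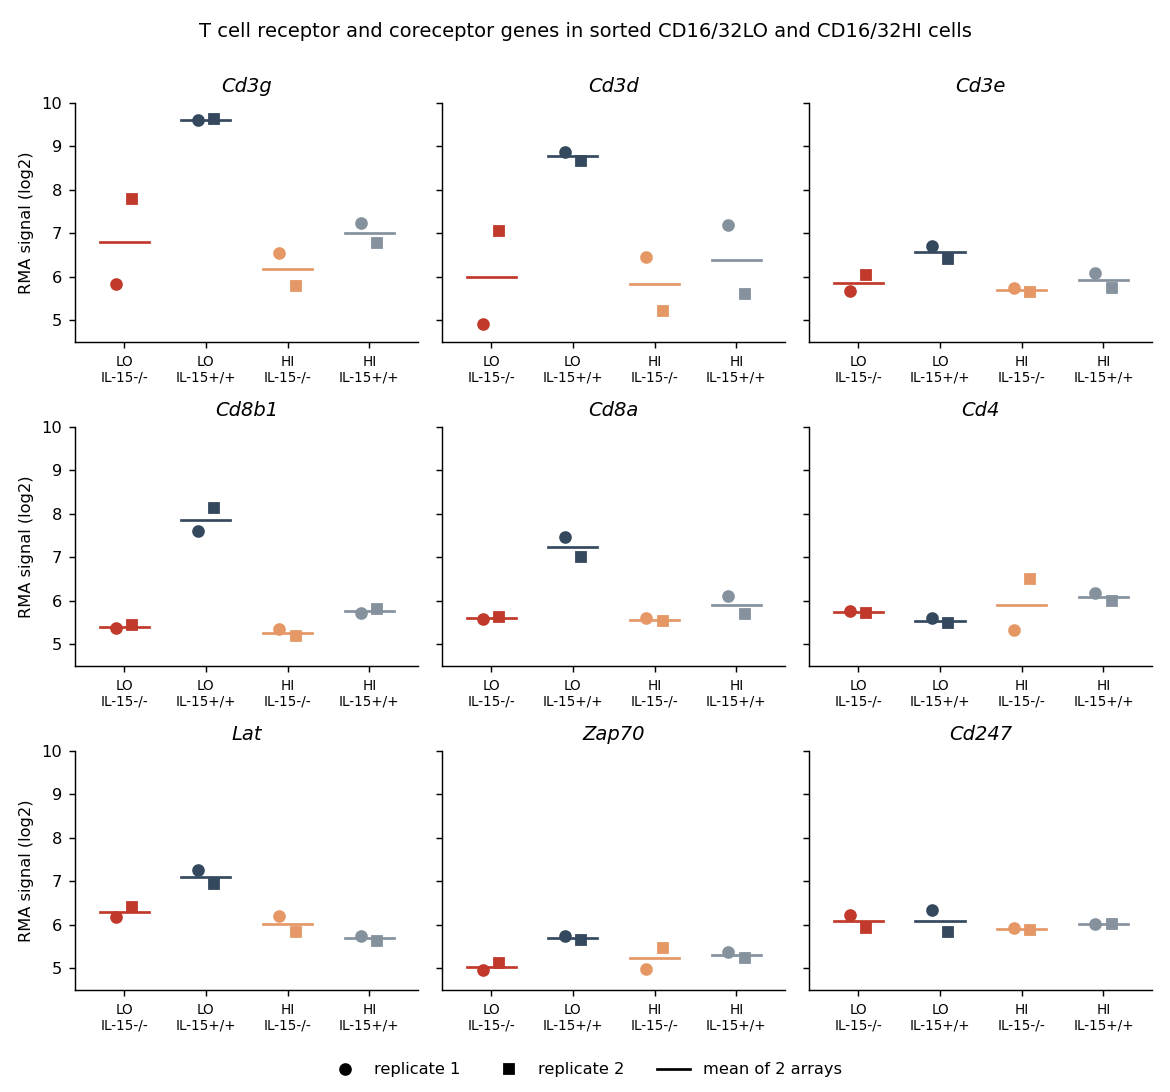
RMA signal (log2, vertical axis) of the 9 measured genes on each of the 8 arrays, by population (LO, CD16/32LO and HI, CD16/32HI) and genotype. Circles are replicate 1, squares replicate 2 and bars the mean of 2 arrays. Cd3g lay at 5.83 and 7.79 on the LO IL-15-/- arrays and at 9.60 and 9.62 on the LO IL-15+/+ arrays, and Cd4 and Cd247 show no such peak.

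In CD16/32LO cells, transcripts of the CD3 delta, epsilon and gamma chains and of both CD8 chains were lower in IL-15-/- than in IL-15+/+ tumors on every array, with Cd8b1 5.47-fold lower, whereas Cd247 overlapped between the genotypes and Cd4 was slightly higher. Cd8b1 was the only one of the 9 measured members called, and it fell. Over all 21789 probe sets 0.0367% were called in either direction and 0.0321% as lower. In 7 of the 9 members both IL-15-/- arrays lay below both IL-15+/+ arrays, against 4.7% of all probe sets, and in 1 (Cd4) both lay above, against 24.2%. The median difference of the 9 members was -0.80 on the log2 scale. In a sorted mixture, fewer T cells and less of a transcript in each T cell cannot be told apart, and this holds for every difference below.

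Cd3g, the gamma chain that pairs with epsilon, was at 5.83 and 7.79 in the CD16/32LO arrays of IL-15-/- tumors and at 9.60 and 9.62 in those of IL-15+/+ tumors. Both IL-15+/+ arrays were nearly equal and stood above both IL-15-/- arrays, which differed widely from each other. The log2 difference was -2.80 (SE 0.556), or 6.97-fold lower, with -3.78 in replicate 1 and -1.83 in replicate 2, and it did not pass the test (adjusted p = 0.796 from limma). It passed only on omission of the replicate 2 IL-15-/- array of that population (-3.79, adjusted p = 0.0308 from limma). Cd3d, the delta chain, followed the same course at 4.92 and 7.06 in IL-15-/- and 8.87 and 8.67 in IL-15+/+ arrays. Its log2 difference was -2.78 (SE 0.734, adjusted p = 0.9999 from limma), again with no overlap and with the lowest signal in the IL-15-/- array of replicate 1.

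The epsilon chain is needed for every surface receptor, and its probe set gave a narrower range. Cd3e was at 5.67 and 6.05 in IL-15-/- and at 6.72 and 6.41 in IL-15+/+ CD16/32LO arrays. The IL-15-/- arrays were below without overlap, by 0.71 on the log2 scale (SE 0.251), and the difference was not called. Within an array, the log2 ratio of Cd3g to Cd3e was lower by 2.10 in IL-15-/- tumors (differences of -2.73 in replicate 1 and -1.47 in replicate 2), so the probe sets of the CD3 chains did not move by equal amounts. Cd247, the zeta chain gene that NK cells also transcribe, was at 6.23 and 5.94 in IL-15-/- and at 6.35 and 5.84 in IL-15+/+ arrays. Here the genotypes overlapped, and the difference of -0.01 had a 95% confidence interval of -0.58 to 0.56.

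Cd8b1 encodes CD8 beta, the chain that marks conventional CD8 T cells. Its CD16/32LO values were 5.37 and 5.44 in IL-15-/- tumors and 7.60 and 8.13 in IL-15+/+ tumors. The IL-15-/- arrays agreed closely and stood far below both IL-15+/+ arrays. Both IL-15-/- values were under the lowest array median of 5.62, and whether they were at background was not tested. The log2 difference was -2.45 (SE 0.247, adjusted p = 0.0172 from limma), with -2.22 in replicate 1 and -2.68 in replicate 2. With the replicate 1 IL-15-/- mouse omitted it was -2.42 and still called (adjusted p = 0.0307 from limma), where 0.0413% of all probe sets were called as lower. The call ended with a replicate block (adjusted p = 0.0701 from limma), with the normalization set as a block (0.739) and with each array centred on its median (0.0529), while the difference stayed between -2.72 and -2.19 under every alternative run. It also ended on omission of any CD16/32LO array or of either IL-15+/+ CD16/32HI array, with adjusted p up to 0.213.

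Cd8a, the alpha chain, was at 5.57 and 5.63 in IL-15-/- and at 7.47 and 7.02 in IL-15+/+ CD16/32LO arrays. It was lower by 1.64 on the log2 scale in IL-15-/- tumors (SE 0.255), or 3.12-fold, and missed the threshold (adjusted p = 0.213 from limma). Centring each array on its median brought it below the threshold (0.0403), as did quantile normalization (0.0387). Within an array the log2 ratio of Cd8a to Cd8b1 was 0.81 higher in IL-15-/- tumors (pooled SD 0.49), with both of their arrays above both IL-15+/+ arrays. It differed by 0.33 in replicate 1 and 1.29 in replicate 2, and by 0.32 on omission of the replicate 2 IL-15+/+ array.

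Cd4 ran apart from the other coreceptor. It was at 5.76 and 5.71 in IL-15-/- and at 5.601 and 5.49 in IL-15+/+ CD16/32LO arrays, so that both IL-15-/- arrays were slightly above both IL-15+/+ arrays. The log2 difference was 0.19, with a 95% confidence interval of -0.61 to 0.99, and it lay close to the 0.13 of all probe sets. It turned to -0.165 with the normalization set as a block. Each Cd4 value lay under the median of its own array, at 5.90 and 5.93 in IL-15-/- and 5.93 and 5.65 in IL-15+/+ arrays. Whether these Cd4 signals were at background was not tested.

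Of the 2 measured genes downstream of the receptor, neither was called. Zap70, the kinase recruited to the phosphorylated chains, was at 4.95 and 5.11 in IL-15-/- and at 5.74 and 5.65 in IL-15+/+ CD16/32LO arrays, a difference of -0.66 (SE 0.243). Lat, the adaptor it phosphorylates, was at 6.19 and 6.42 in IL-15-/- and at 7.27 and 6.94 in IL-15+/+ arrays, a difference of -0.80 (SE 0.244). Neither gene's genotypes overlapped. By fold alone, the filter of the study's methods (over 3-fold), 4 members were lower (Cd3g, Cd3d, Cd8b1 and Cd8a), against 0.239% of all probe sets.

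**Figure D2:**
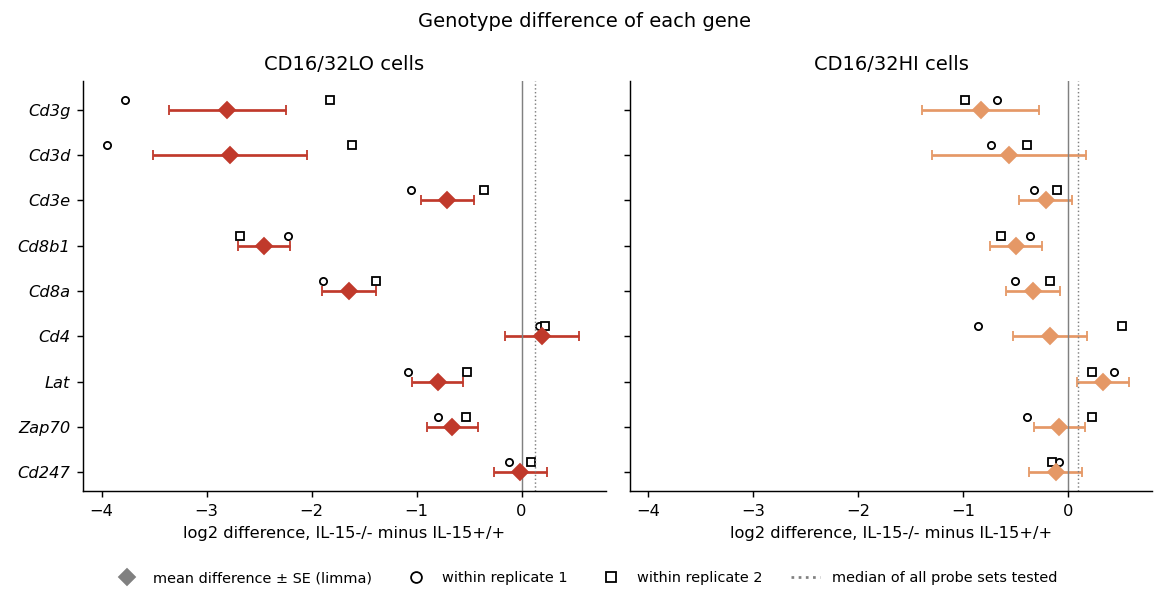
Log2 difference, IL-15-/- minus IL-15+/+ (horizontal axis), of each of the 9 genes in CD16/32LO (left) and CD16/32HI cells (right). Diamonds and bars are the mean difference and its SE from limma, open symbols the difference within each replicate, and the dotted line the median of all probe sets tested (0.13 and 0.09). Cd8b1 has a difference of -2.45 and Cd3g of -2.80 in the left panel, against -0.50 and -0.83 in the right panel.

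The IL-15-/- mouse of replicate 1 set much of the size of the CD3 differences and little of those of CD8. Without it, the CD16/32LO difference was -1.82 for Cd3g and -1.71 for Cd3d, compared with -1.62 for Cd8a. Of the 9 members 8 had differences below 0 with and without this mouse. With all arrays 27% of all probe sets had a difference below 0, and the share without this mouse was not counted. In its CD16/32LO array the mean of the 8 macrophage genes was 10.51, where the other 3 CD16/32LO arrays had 8.39 to 8.64, and the mean of the 7 neutrophil genes was 8.24, where the others had 9.93 to 10.60. The part of these cells in the Cd3g and Cd3d differences was not tested. The CD8 signals of both IL-15-/- CD16/32LO arrays lay under their array medians of 5.90 and 5.93. The part of low signal in the small CD8 change was not tested.

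All 11 NK cell genes listed were lower without overlap in IL-15-/- CD16/32LO cells, against 4.7% of all probe sets, with a median log2 difference of -1.49. Of them 2 were called as lower, against 0.0321% of all probe sets: Xcl1, a chemokine of cytotoxic lymphocytes, and Gzma, a granule protease. The list was chosen with earlier results of these data known. The mean of the NK list was 4.79 and 4.80 in IL-15-/- and 6.37 and 6.56 in IL-15+/+ CD16/32LO arrays, without overlap. NK cells do not carry CD8 beta or assembled CD3, and some of the listed genes are shared with CD8 T cells. The list mean of 5 measured B cell genes was 5.38 and 6.26 in IL-15-/- and 6.94 and 6.10 in IL-15+/+ CD16/32LO arrays and overlapped, and the mean of 7 dendritic cell genes was 5.34 and 5.84 in IL-15-/- and 5.86 and 6.95 in IL-15+/+ arrays. The dendritic cell means were thus also lower without overlap in IL-15-/- tumors, but they nearly touched at 5.84 and 5.86. Of the 7 dendritic cell genes 3 were lower without overlap, against 4.7% of all probe sets. The part of dendritic cells in the Cd8a signal was not tested.

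In CD16/32HI cells the members differed between the genotypes by -0.83 (Cd3g) to 0.33 (Lat) on the log2 scale. None of the 9 was called by limma, and 0 had an unadjusted p under 0.05, where 5 of the 21789 probe sets were called (0.0229%) and 4.91% had such a p. Without the replicate 1 IL-15-/- mouse none was called either, but Cd3g (-1.22, unadjusted p = 0.00431) and Cd3d (-1.18, unadjusted p = 0.0494 from limma) had such a p, against 5.5% of all probe sets. Both IL-15-/- arrays lay below both IL-15+/+ arrays in 5 members, against 10.4% of all probe sets, and above in 1, Lat, against 24.1%. Cd3g was at 6.55 and 5.79 in IL-15-/- and at 7.24 and 6.77 in IL-15+/+ CD16/32HI arrays, with the genotypes apart, a difference of -0.83 (SE 0.556). Cd3d was at 6.46 and 5.22 in IL-15-/- and at 7.19 and 5.61 in IL-15+/+ arrays, and these overlapped.

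Cd8b1 was at 5.36 and 5.18 in IL-15-/- and at 5.72 and 5.82 in IL-15+/+ CD16/32HI arrays, which did not overlap. Its difference was -0.50 (SE 0.247) and missed the threshold (adjusted p = 0.854 from limma). Cd8a was at 5.62 and 5.53 in IL-15-/- and at 6.12 and 5.70 in IL-15+/+ arrays, again apart, by -0.34. Cd4 was at 5.33 and 6.50 in IL-15-/- CD16/32HI cells, which enclosed the IL-15+/+ values of 6.19 and 5.99. Lat was the one member with both IL-15-/- arrays above, at 6.19 and 5.84 against 5.75 and 5.62 in IL-15+/+ arrays, a difference of 0.33. Cd3e, Cd247 and Zap70 had differences of -0.22, -0.12 and -0.08.

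Whether the genotype difference was larger in one population than in the other was tested as an interaction, the CD16/32LO difference minus the CD16/32HI difference. No probe set was called (0 of 21789 with limma, 2.36% at an unadjusted p under 0.05). Of the members 4 had an unadjusted p under 0.05, and the interaction was -2.22 for Cd3d, -1.97 for Cd3g, -1.95 for Cd8b1 (unadjusted p = 0.000377, adjusted p = 0.9999 from limma), -1.30 for Cd8a and -1.13 for Lat on the log2 scale. It was -0.49 for Cd3e, -0.58 for Zap70, 0.11 for Cd247 and 0.36 for Cd4, and the 95% intervals of these 4 and of Cd3d spanned 0. With the replicate 1 IL-15-/- mouse omitted, Cd3d and Cd3g dropped to -0.53 and -0.60, while Cd8b1 and Cd8a stayed at -1.83 and -1.23.

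Put in order, the CD16/32LO cells of IL-15+/+ tumors were highest for 7 of the 9 members. In Cd3d, Cd3e, Cd3g, Cd8a, Cd8b1, Zap70 and Lat both of these arrays exceeded all other 6 arrays, which 1.54% of all probe sets did. Below that group, Cd3d, Cd3e and Cd3g had overlapping neighbours down to the lowest mean. Among the members, Cd8b1 alone had 4 groups in a fully separate order, with means of 7.86 in CD16/32LO IL-15+/+, 5.77 in CD16/32HI IL-15+/+, 5.41 in CD16/32LO IL-15-/- and 5.27 in CD16/32HI IL-15-/- cells. The lowest 2 groups nearly touched, at 5.37 and 5.44 against 5.36 and 5.18. The share of all probe sets with such an order was not counted. By mean, Cd4 was highest in CD16/32HI cells, with overlapping genotypes, and lowest in the IL-15+/+ CD16/32LO group. Neighbouring groups of Cd247 overlapped except those of CD16/32HI cells, with all means between 5.905 and 6.10.

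Between the populations, the CD16/32HI cells had lower CD3 and CD8 signals in the mice other than the replicate 1 IL-15-/- mouse. With all 8 arrays no probe set was called (0 of 21789 with limma, 1.8% at an unadjusted p under 0.05), so no member was either (5 had an unadjusted p under 0.05). By fold alone Cd3g was over 3-fold lower in CD16/32HI cells, against 0.115% of all probe sets. Cd3g had a CD16/32HI minus CD16/32LO difference of -2.004 in the other IL-15-/- mouse and of -2.37 and -2.85 in the IL-15+/+ mice, against 0.73 in the replicate 1 IL-15-/- mouse. Cd4 ran the other way, at 0.79 in the other IL-15-/- mouse and 0.59 and 0.49 in the IL-15+/+ mice, against -0.43 in that mouse. Cd3g and Cd4 thus changed sign in the mouse in which C1qa and Csf3r did.

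With that mouse omitted, Cd3g, Cd3d, Cd8b1 and Lat were called as lower in CD16/32HI cells, against 2.64% of all probe sets. Each remaining mouse was then also made its own block, a setting chosen after the data were seen. With it 7 members were called, 6 with lower and 1 with higher signal in CD16/32HI cells, against 7.62% and 6.67% of all probe sets. The omitted mouse is the one that ran against the others in this same contrast, so these calls and p-values cannot test it. The log2 differences were -2.41 for Cd3g (adjusted p = 6.85e-05 from limma), -2.197 for Cd3d (0.000546) and -1.14 for Lat (0.0042). They were -1.48 for Cd8b1 (0.0145), -0.92 for Cd8a (0.0305) and -0.56 for Cd3e (0.028). Cd4 was higher by 0.62 (0.0182), and Cd247 and Zap70 were not called. The CD8 chains had their population difference in the IL-15+/+ mice: Cd8b1 differed by -0.26 and -0.01 in IL-15-/- mice, against -1.87 and -2.31 in IL-15+/+ mice, and the interaction was not called. The IL-15-/- values of Cd8b1 were at most 5.44, under the lowest array median of 5.62. Of the 9 members, 7 were highest in the CD16/32LO arrays of IL-15+/+ tumors. The NK list mean was 4.69 and 4.74 in IL-15-/- and 5.35 and 5.25 in IL-15+/+ CD16/32HI arrays, below the CD16/32LO arrays of the same genotype. For 5 genes listed for the granules of large granular lymphocytes, the CD16/32HI means were 4.72 and 4.52 in IL-15-/- and 5.39 and 4.73 in IL-15+/+ arrays. The CD16/32LO means of these 5 genes were 4.89 and 5.01 in IL-15-/- and 6.66 and 5.89 in IL-15+/+ arrays. Whether the fractions held the cells of their labels was not tested.

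The CD8 chains were set against Cd4 and against the CD3 chains within each array, as differences of mean log2 signals (CD8 as the mean of Cd8a and Cd8b1, CD3 as the mean of Cd3d, Cd3e and Cd3g). Because probe sets hybridize differently, only changes of such a ratio between arrays can be read, and not its height. In CD16/32LO cells the log2 ratio of CD8 to Cd4 was -0.29 and -0.18 in IL-15-/- arrays and 1.93 and 2.08 in IL-15+/+ arrays. The groups were far apart and the replicates close, with a difference of -2.24 (pooled SD 0.0909) and of -2.22 and -2.26 within the replicates. The small SD is that of a mean over 2 chains that varied in opposite ways. Within the replicates Cd8a differed by -1.90 and -1.39, and Cd8b1 by -2.22 and -2.68. No p is given for scores over the members.

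The ratio of CD8 to CD3 chains did not separate the genotypes. It was 0.00 and -1.43 in IL-15-/- and -0.86 and -0.67 in IL-15+/+ CD16/32LO arrays, so that the IL-15-/- mice lay on either side of the IL-15+/+ mice, and the replicates gave 0.87 and -0.77. The ratio of Cd4 to CD3 chains was 0.29 and -1.25 in IL-15-/- arrays, against -2.80 and -2.74 in IL-15+/+ arrays, higher by 2.29 and without overlap. Thus CD8 and CD3 signals were both lower relative to Cd4, and neither could be ranked against the other beyond the spread. The Cd4 signals of the CD16/32LO arrays lay under their array medians, and the part of low signal in these ratios was not tested. In CD16/32HI cells all 3 ratios overlapped between the genotypes, with differences of -0.25, 0.12 and 0.36.

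**Figure D3:**
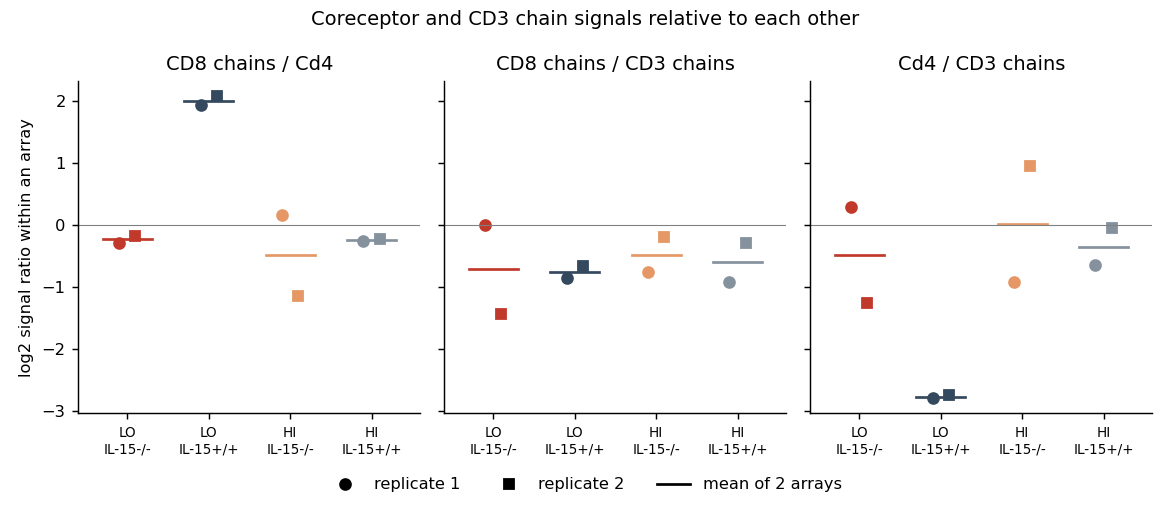
Log2 signal ratio within an array (vertical axis) of the CD8 chains to Cd4, of the CD8 chains to the CD3 chains and of Cd4 to the CD3 chains, by population (LO, HI) and genotype. Circles are replicate 1, squares replicate 2 and bars their mean. The CD8 to Cd4 ratio is at -0.29 and -0.18 on the LO IL-15-/- arrays and at 1.93 and 2.08 on the LO IL-15+/+ arrays.

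Cd4 was also set against the macrophage genes over the arrays. The mean of the 8 macrophage genes was 10.51 and 8.53 in IL-15-/- and 8.64 and 8.39 in IL-15+/+ CD16/32LO arrays, and 8.44 and 10.69 in IL-15-/- and 10.41 and 10.02 in IL-15+/+ CD16/32HI arrays. The highest Cd4 signal (6.50) was on the array with the highest macrophage mean (10.69), and the lowest (5.33) on an array with a low one (8.44). The CD16/32LO arrays of IL-15-/- tumors did not follow this, with Cd4 at 5.76 and 5.71 where the macrophage means were 10.51 and 8.53. Pearson's r of Cd4 was 0.84 with the macrophage mean and -0.87 with the neutrophil mean, over 8 arrays of 4 mice. Cd8b1 had r = -0.54 with the macrophage mean and 0.98 with the NK mean. These coefficients are descriptions, since pairs of arrays share a mouse and sets of arrays an inferred normalization, and the part of macrophages in the Cd4 signal was not tested.

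**Figure D4:**
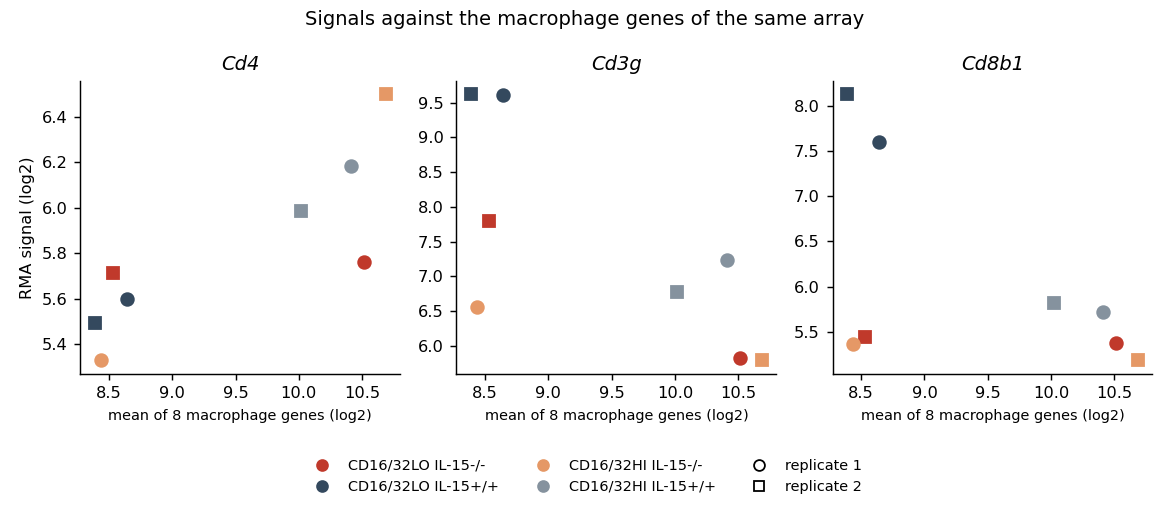
RMA signal (log2, vertical axes with separate scales) of Cd4, Cd3g and Cd8b1 against the mean log2 signal of 8 macrophage genes on the same array (horizontal axis). Colours give the 4 groups, circles replicate 1 and squares replicate 2. Cd4 is highest (6.50) where the macrophage mean is 10.69, whereas Cd3g and Cd8b1 are highest in the CD16/32LO IL-15+/+ arrays, whose macrophage means are 8.64 and 8.39.

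The members fell into those that varied together and those that did not. Over the 8 arrays Cd3d and Cd3g had r = 0.97, Cd8a and Cd8b1 r = 0.94, and Cd4 and Cd3g r = -0.49. The genes most like Cd3g in Pearson's r were Gimap4 (0.99) and Nkg7, Gimap7, Gimap3 and Ctla2a (0.97 each). Those most like Cd8b1 were Xcl1 (0.99), St6galnac1 (0.98) and Nkg7, Themis and Thy1 (0.96 each). Those most like Cd4 were Rmrp (0.99), Nanp and Rpl27a (0.98 each), and Cdca7l and Rrm1 (0.97 each). The first set holds GIMAP GTPases of lymphocytes, the second the T cell surface protein Thy1 and the thymocyte signaling protein Themis, and the third none of the T cell genes listed here.

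Of 36 further genes of proximal signaling 34 were measured, and limma called 0 in any comparison of all 8 arrays. An unadjusted p under 0.05 was reached by 4 in CD16/32LO cells, against 1.91% of all probe sets, and by 2 in CD16/32HI cells, against 4.91%. In CD16/32LO cells 27 of them had a difference below 0, against 27% of all probe sets, with a median of -0.21 where all probe sets had 0.13, and of -0.12 without the replicate 1 IL-15-/- mouse. In 11 of the 34 both IL-15-/- arrays lay below both IL-15+/+ arrays, against 4.7% of all probe sets, and in 2 above, against 24.2%. The lowest were Prkcq, the protein kinase C of the T cell synapse (-1.16), and Themis (-1.04), and the highest Rasgrp1, which activates Ras in T cells (0.97), and Bcl10, an adaptor on the way to NF-kB (0.40). Themis was at 4.24 and 4.28 in IL-15-/- and at 5.17 and 5.42 in IL-15+/+ CD16/32LO arrays, without overlap. Several of these genes, Lcp2, Ptprc and Ptpn6 among them, are also used by myeloid cells. In CD16/32HI cells the median was 0.10, or 0.0456 without that mouse, with Grap2 (-0.85) and Cd2 (-0.63) lowest and Ubash3b (0.99) and Lcp2 (0.92) highest. Between the populations 6 of the 34 were called by limma without that mouse, against 5.68% of all probe sets, with Lcp2, Prkcq, Pag1 and Ptpn6 lower and Grap2 and Rasgrp1 higher in CD16/32HI cells.

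Of 18 T lineage transcription factors 16 were measured. The list as drawn up also held Themis, which is counted above and was left out here. Limma called 0 between the genotypes in either population. In CD16/32LO cells 3 (Ikzf3, Eomes and Tox) had an unadjusted p under 0.05, against 1.91% of all probe sets. In CD16/32HI cells 0 had such a p, against 4.91%. The median difference of the 16 factors was -0.29 among CD16/32LO arrays and 0.19 among CD16/32HI arrays, and -0.0797 and 0.0102 without the replicate 1 IL-15-/- mouse. Between the populations limma called 0 with all arrays. Calls without the replicate 1 IL-15-/- mouse are not reported for these factors, since that fit leaves 1 array in each IL-15-/- group. The difference was below 0 for 13 of the 16 factors with all arrays and for 15 without that mouse. The share of all probe sets below 0 was not counted for this comparison. The median difference, CD16/32HI minus CD16/32LO, was -0.25 with all arrays and -0.46 without that mouse, with Satb1 and Ikzf3 lowest. In CD16/32LO cells the lowest were Ikzf3 (-1.70), a lymphoid zinc finger factor, and Satb1 (-1.48), a chromatin organizer of thymocytes, and the highest were Runx3 (0.71), which represses Cd4 in CD8 T cells, and Foxp3 (0.31), the factor of regulatory T cells. Satb1 differed by -3.19 in replicate 1 and 0.23 in replicate 2, so its genotypes overlapped. The 6 other T cell markers had a median of -0.52 in CD16/32LO cells, with 2 of them (Cd2 among these) lower without overlap, against 4.7% of all probe sets. No probe set carried any of the 16 names searched for the T cell receptor chains themselves, which are not analysed here.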

How the data were processed

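RNA of sorted CD16/32LO and CD16/32HI tumor cells was hybridized to 1-colour Affymetrix arrays. The authors processed the arrays with Affymetrix Expression Console and RMA (versions not given in the sources used here) and deposited log2 signals per probe set (35557), already background corrected, normalized and summarized. Signals were used as deposited. Gene names came from the platform annotation: 21789 probe sets had 1 symbol, 1621 several and 12147 none, and only those with 1 were tested.

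Group means were fitted with limma 3.58.1 (R 4.3.3), with contrasts within and between populations and no block. The study's methods compared group means by 1-way ANOVA and a filter of over 3-fold. The filter was run as an alternative and the ANOVA was not. No values were filtered as low. The code was tested on simulated data. Both populations came from the same mice, so the mouse pairs them, whereas the replicate number joins the genotypes by age and, for replicate 1, by the inferred normalization set. The 2 arrays of a group came from different mice, and their number limits the precision. All members are named. From each list, called genes and otherwise the 2 highest and 2 lowest are named, and for Cd3g, Cd8b1 and Cd4 the 5 most alike genes. The members and lists were chosen with earlier results of these data known. Alternatives were the replicate or mouse block, median centring, quantile normalization, the normalization set as a block, other filters and probe sets, and omission of each array or of 1 mouse.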

Additional observations from a re-analysis of the deposited data

How the results depend on the processing

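In CD16/32LO cells 1 member was called between the genotypes. The count was 0 with a replicate block, 0 with the normalization set as a block, 0 with all probe sets tested, 2 with quantile normalization and 4 by over 3-fold with no test, and 0 to 1 when 1 array was left out. Cd8b1 lost its call on omission of each CD16/32LO array and of each IL-15+/+ CD16/32HI array (adjusted p = 0.0172 to 0.213 over the 8 omissions, limma), and with all probe sets tested (0.0661). Cd3g was called on omission of the replicate 2 IL-15-/- CD16/32LO array (-3.79, adjusted p = 0.0308 from limma). No member was called in CD16/32HI cells or for the interaction under any alternative. Where 1 array was left out of a group, the lone array was assumed to vary like the other groups. The cause of these changes was not tested.

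Between the populations 0 members were called, and 4 without the replicate 1 IL-15-/- mouse, 7 with the mouse as a block and without it (the block alone gave 0), 1 by over 3-fold and 0 when any 1 array was left out.

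The direction turned for members near 0. Without the replicate 1 IL-15-/- mouse the difference was 0.41 for Cd4 and 0.16 for Zap70 in CD16/32HI cells, and the interaction was -0.25 for Cd4 and -0.0095 for Cd247. Cd4 in CD16/32LO cells was -0.165 with the normalization set as a block. Leaving out 1 array gave -1.35 to 0.23 for Cd3d, -0.76 to 0.41 for Cd4 and -0.33 to 0.16 for Zap70 in CD16/32HI cells, -0.26 to 0.24 for Cd247 in CD16/32LO cells, -0.14 to 0.36 for Cd247 and -0.22 to 0.95 for Cd4 in the interaction, and -0.21 to 0.0313 for Zap70 between the populations.

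For the ratios, CD8 to CD3 in CD16/32LO cells was -0.67 without the replicate 1 IL-15-/- mouse. Leaving out 1 array gave -2.31 to -2.17 for CD8 to Cd4, -0.67 to 0.77 for CD8 to CD3 and 1.51 to 3.06 for Cd4 to CD3 in CD16/32LO cells, and -0.90 to 0.41, -0.20 to 0.43 and -0.57 to 1.30 in CD16/32HI cells. The replicate numbers share an age and, for replicate 1, an inferred normalization, and the replicate block changed no other member's call.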
